A study of Mus musculus with 9 samples.

Results

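Respiratory complex I, the NADH:ubiquinone oxidoreductase, is the first and biggest enzyme of the mitochondrial respiratory chain. It takes electrons from NADH, passes them through iron-sulfur clusters in its matrix arm to ubiquinone, and uses the energy to pump protons through its membrane arm. A small set of conserved core subunits does the chemistry, some encoded in the nucleus and the rest in mitochondrial DNA, while many accessory subunits stabilise the structure and dedicated assembly factors build it without staying in it. In the preimplantation embryo the mitochondria are inherited from the oocyte, and oxidative metabolism becomes more active as the embryo approaches the blastocyst stage.

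The genes described here are all rows of the count tables whose symbol begins with Nduf, leaving out 3 symbols that contain "-ps". They were 51 of 53819 rows. By role they were 7 core subunits, 30 accessory subunits, 8 assembly factors (Ndufaf1 to Ndufaf8) and 6 others. The others were Ndufa4, which is now regarded as a subunit of complex IV, its relative Ndufa4l2, and the symbols Ndufa11b, Ndufb4c, Ndufb11b and Ndufs6b, whose names mark them as copies of subunit genes. The filter on low counts kept 47 members, among them every core subunit, accessory subunit and assembly factor. Of the 4 that it removed, Ndufa4l2 and Ndufa11b had no count in any of the 9 libraries, Ndufs6b had at most 3 counts in a library and Ndufb4c at most 8.

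The RNA came from C57BL/6J mouse morulae, embryos of compacting cells that have not yet formed a cavity, made by in vitro fertilization with the Nakagata protocol and CARD media. The sire, before conception, was a control or was given 6% ethanol or 10% ethanol, and each of these 3 groups had 3 libraries. Nothing in the labels gives the number of embryos or sires behind a library, or anything about the dams. P-values therefore rest on how far these libraries vary within a group, and that variation may be technical.

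Library totals ran from 6263465 to 27619281 counts. Column headers came in a long form, with the aligner's name, for control 2, for 6% ethanol 1 and for both 10% ethanol 1 and 10% ethanol 2. The other 5 libraries had a short form. The long form went with the deepest 4 libraries, at 19574710 counts or more. Over the 47 members the coefficient of variation had a median of 41.0% among the long-header libraries and 70.7% among the short-header ones, against 44.3% and 76.4% over all 12488 tested genes. CPM, the unit of all levels here, is the count per 1000000 counts of the library, on library sizes scaled by the trimmed mean of M values (TMM). Of 11 early embryo markers, 9 had counts in every library. Sox2 and Utf1 were at 0 in at least 1. Cumulus and granulosa markers summed to at most 5.47 CPM in a library and sperm markers to at most 3.63 CPM, with 5 of 12 and 5 of 8 at 0 throughout.

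The mean of a tested member over the 9 libraries ran from 1.28 to 228 CPM with a median of 21.3 CPM, against a median of 14.7 CPM over all tested genes. Ndufs1, the largest core subunit and carrier of several iron-sulfur clusters, had the highest CPM of any member in 8 of the 9 libraries. Per kilobase of the principal messenger RNA the order changed. Ndufa4 led at 172 CPM per kilobase, followed by the accessory subunits Ndufb10 at 102 and Ndufa2 at 101, with Ndufs1 at 85.8. This order is of means, and 6% ethanol 2 raised those of Ndufb10 and Ndufa2 most. Ndufb10 had 260 CPM there and 18.6 to 122 CPM elsewhere, and Ndufa2 361 CPM there and 1.06 to 56.8 CPM elsewhere. Ndufs1 had 362 CPM there and 177 to 255 CPM elsewhere. The place of Ndufb10 and Ndufa2 above Ndufs1 thus leans on 1 library. The tested subunits assemble in nearly equal numbers in the protein complex. Those with a length spanned 0.799 (Ndufb2, on 4371 bases) to 102 CPM per kilobase (Ndufb10), with a median of 24.4. Ndufb1, at a mean of 1.33 CPM, had no such length and is not among them. The low end of this span rests on the longest principal transcript, and the high end on a mean raised by 6% ethanol 2. Among core subunits Ndufs7, which lines the ubiquinone pocket, was low at 2.54 CPM per kilobase. These lengths come from another annotation than the counts, and they set only this order.

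Some members were far steadier than others. Ndufa12, an accessory subunit of the matrix arm, varied least, with 90.9, 86.1 and 87.2 CPM in controls, 81.2, 98.9 and 79.1 CPM with 6% ethanol and 73.6, 60.0 and 81.2 CPM with 10% ethanol. Its highest library was 1.65-fold above its lowest, and its coefficient of variation of 13.5% was the sixth lowest of 12488 tested genes. Ndufs1 came next at 24.3%, rank 212. At the other end Ndufa2, an accessory subunit with a thioredoxin-like fold, reached 361 CPM in 6% ethanol 2, against 1.06 CPM in 6% ethanol 1 and 1.76 CPM in 6% ethanol 3. Controls held 31.9, 21.7 and 27 CPM of it, and the 10% group 56.8, 12.4 and 4.56 CPM. Ndufa13, also known as Grim-19, had 75.6 CPM in 10% ethanol 3 and 1.52 to 18.6 CPM elsewhere. The median coefficient of variation was 47.5% for the 7 core subunits, 81.5% for the 30 accessory subunits and 68.0% for the 8 assembly factors, against 75.6% over all tested genes. It was 71.0% for tested genes with a mean CPM between the quartiles of the members. The roles were not matched for level, and the core subunit Ndufs7, at a mean of 2.49 CPM, had 91.0%.

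The libraries that stood apart over the members were not those of one treatment. The library 6% ethanol 2 held the highest value of 19 of the 47 members (40.4%, against 16.5% of all tested genes), among them Ndufv1, Ndufs1, Ndufb10, Ndufb6 and Ndufa2. It was the library of fewest counts, 6263465, and also held the lowest value of 23.9% of all tested genes, against 2.13% of the members. Its neighbour 6% ethanol 3 held the lowest value of 15 (31.9%, against 15.5%), among them Ndufv1, Ndufb11 and Ndufb8. The library 10% ethanol 2 held the lowest value of 14 (29.8%, against 6.50%). After centring each gene on its own mean of log2(CPM + 1), the median member lay at 0.68 in 6% ethanol 2, 0.61 in control 3, -0.40 in 6% ethanol 3 and -0.44 in 10% ethanol 2. The medians over all tested genes in those libraries were -0.26, -0.09, -0.15 and 0.01. The 6% group thus held both a high and a low extreme.

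**Figure D1:**
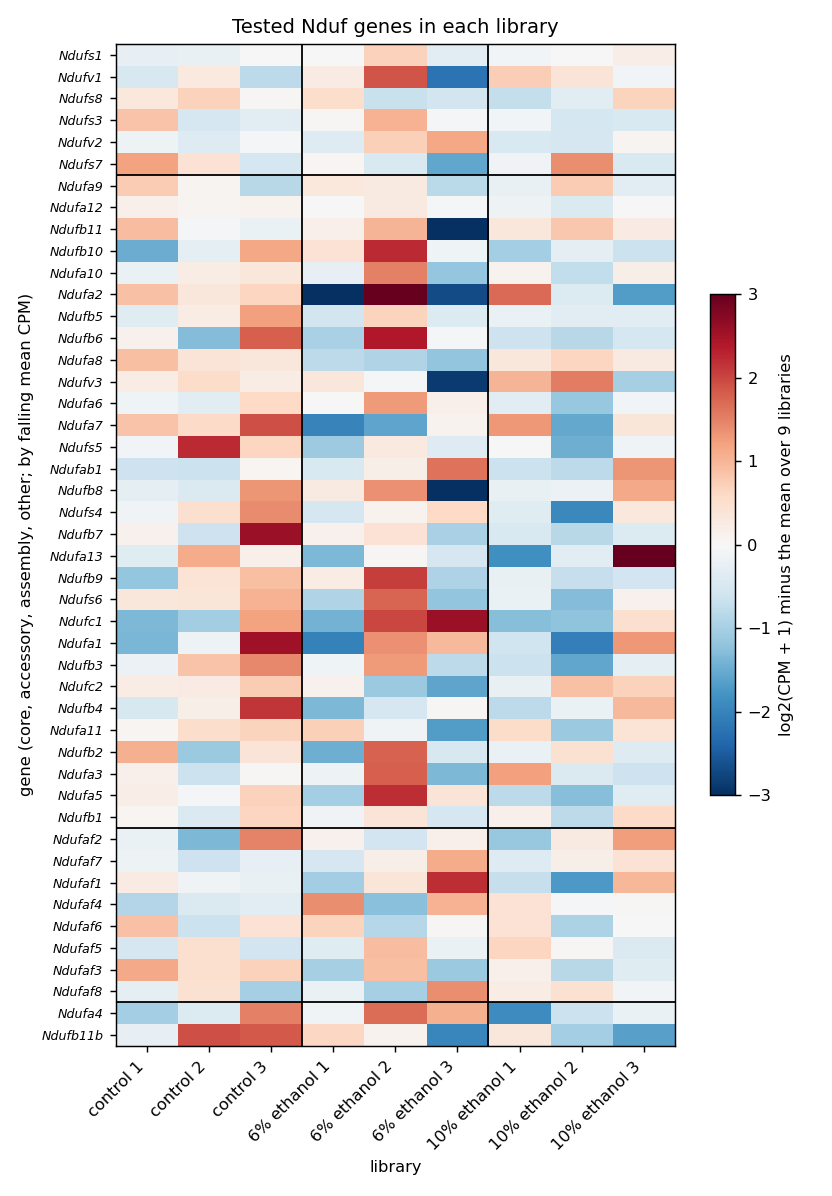
Each cell is log2(CPM + 1) of 1 of 46 tested Nduf genes (rows, by role and falling mean) in 1 of the 9 libraries (columns, by sire treatment), minus the gene's mean over the libraries. Red stands for values above the gene's mean, which prevail in 6% ethanol 2, and blue for values below it, as in much of 6% ethanol 3.

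Promoter sequence was compared as a feature that the choice of genes did not use. RefSeq sequence of the 250 bases before the start site (build GRCm38.p6) was found for 41 of the 51 members. The site of nuclear respiratory factor 1 (NRF1), a transcription factor known for driving nuclear genes of the respiratory chain, was searched on both strands as GCGCA, any base, then GCGC, a palindrome but for its middle. It occurred in 7 of the 41 members (17.1%), namely Ndufa5, Ndufa8, Ndufa11, Ndufaf4, Ndufb4, Ndufs5 and Ndufs6, and in 4.23% of all 27025 genes in the same window. Ndufb4 held 3 matches. The ETS core CCGGAAG, which GABP can bind, occurred in 12.2% of the members against 7.83% of genes, the SP1 box GGGCGG in 46.3% against 35.4%, CCAAT in 34.1% against 37.5%, TATAAA in 9.76% against 14.3%, and the YY1 core AAGATGG in 0% against 5.18%. Overlaps between motifs were not removed. The member promoters had a median GC content of 58.4%, against 52.4% over all promoters.
The NRF1 matches are shown for the 4 members that hold one and whose libraries separate in a comparison described further on. Capitals mark the match, and each sequence reads 5′ to 3′ on the strand of its gene.
Ndufa8: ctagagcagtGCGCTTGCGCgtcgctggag
Ndufaf4: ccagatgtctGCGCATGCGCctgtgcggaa
Ndufa5: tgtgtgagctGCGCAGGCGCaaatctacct
Ndufs6: cgactgctgtGCGCCTGCGCcggcac
In GRCm38.p6 the Ndufa8 window is chr2:36049349-36049378 on the minus strand, centred 25 bases before the start site. That of Ndufaf4 is chr4:24897960-24897989 on the plus strand, 108 bases before it. The Ndufa5 window is chr6:24527697-24527726 on the minus strand, 185 bases before a RefSeq start site, and the Ndufs6 window is chr13:73328483-73328508 on the minus strand, 11 bases before the start. The 4 genes did not share 1 pattern in the libraries. Ndufa8 lay below the controls in every 6% library, Ndufaf4 above them in every 10% library, and Ndufa5 and Ndufs6 below them in every 10% library.

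Core subunits came first, since they carry the flavin, the iron-sulfur clusters and the ubiquinone site. Ndufv1, which binds NADH and the flavin, had 45.7, 79.3 and 37.1 CPM in controls, 75.9, 241 and 13.0 CPM with 6% ethanol and 108, 85.0 and 60.5 CPM with 10% ethanol. The library 6% ethanol 2 lay above all the others and 6% ethanol 3 below them, with 6% ethanol 1 in between. Ndufv2, its iron-sulfur partner, had 26.5, 22.1 and 28 CPM in controls, 22.0, 48.5 and 66.7 CPM at 6% and 21.2, 20.3 and 30.8 CPM at 10%. Only 6% ethanol 2 and 3 stood above the rest. Ndufs1 had 188, 191 and 223 CPM in controls, 225, 362 and 177 CPM at 6%, and 211, 223 and 255 CPM at 10%, and all 3 ranges overlapped.

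Of the core subunits that lie closer to ubiquinone, Ndufs3 had 70.9, 27.2 and 30.9 CPM in controls, 40.0, 81.3 and 38.2 CPM at 6% and 36.5, 26.5 and 27.8 CPM at 10%. For Ndufs3 every 10% library lay below every 6% library, and controls spanned both. Ndufs8, with a pair of iron-sulfur clusters, had 69.8, 90.6 and 57.3 CPM in controls, 80.6, 34.8 and 37.9 CPM at 6% and 33.6, 44.7 and 89.8 CPM at 10%, so that the groups overlapped. Ndufs7 rested on few counts, 0 to 182 in a library, or 5.80, 2.93 and 1.03 CPM in controls, 2.03, 1.15 and 0 CPM at 6% and 1.72, 6.65 and 1.14 CPM at 10%. The summed level of the 7 core subunits was 443 ± 26.8 CPM in controls, 566 ± 257 CPM at 6% and 483 ± 18.8 CPM at 10% ethanol (SD, n = 3 each), with 854 CPM in 6% ethanol 2 and 360 CPM in 6% ethanol 3.

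**Figure D2:**
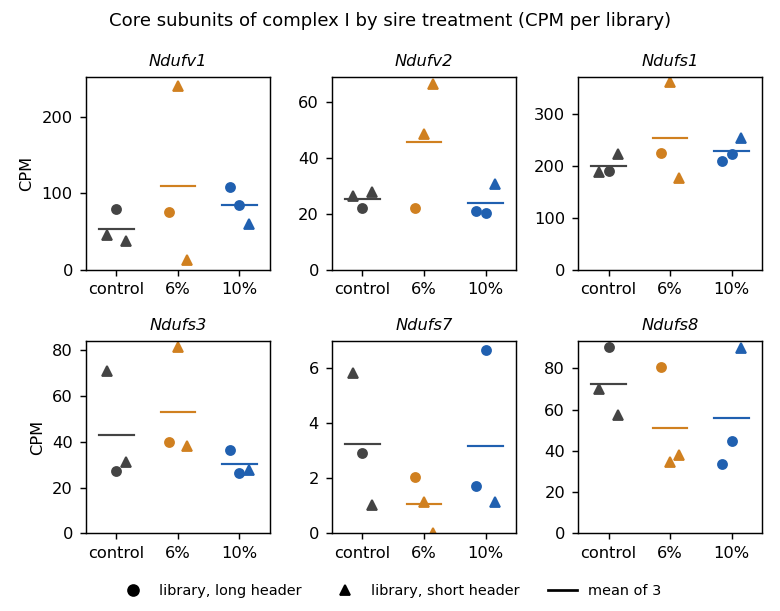
CPM of 6 core subunits (y axis, linear, from 0) by sire treatment (x axis). Each point is 1 library, circles for the long header and triangles for the short, and lines are means of 3. The groups overlap in every panel except that the 10% libraries of Ndufs3 lie below its 6% libraries.

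For 6% ethanol against control, no member passed the test and the members lay on both sides of 0 in near equal numbers. By edgeR's quasi-likelihood test with Benjamini-Hochberg adjustment over 12488 genes, 0 of 47 members passed (background 0%). At an unadjusted p under 0.05 there were 2 members, Ndufa8 and Ndufa7 (4.26%, against 6.24% of all genes). DESeq2 called 0 members and 0.452% of its genes. Of the members 25 lay below 0 and 22 above, where 50.5% of all genes lay below, and their median log2 fold change was -0.07 against -0.01 over all genes. The core subunits had 5 of 7 above 0 with a median of 0.30, the accessory subunits 11 of 30 with a median of -0.18 and the assembly factors 5 of 8 with a median of 0.61. The median standard error of a member was 0.94. Single libraries set the sign of the member median: it was -0.72 without 6% ethanol 2 and -0.23 without control 2, but 0.12 without control 1, 0.15 without control 3 and 0.12 without 6% ethanol 3. The groups by role turned too. Without 6% ethanol 2 the core median was -0.27 with 5 of 7 below 0, and the accessory median -1.03 with 27 of 30 below. The accessory median was 0.13 without control 3 and 0.06 without 6% ethanol 3, -0.29 without control 1 and -0.38 without control 2. The core median was 0.06 without control 3. The assembly median was -0.26 without 6% ethanol 3, with 5 of 8 below 0.

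Libraries of the 6% group lay wholly below the controls for 3 members (6.38%, against 4.72% of all tested genes), the accessory subunits Ndufa8, Ndufa7 and Ndufc2, and wholly above for 0 (against 3.35%). Ndufa8 is a subunit of the membrane arm that faces the intermembrane space and holds twin cysteine motifs. It had 73.2, 50.6 and 49.3 CPM in controls, 22.1, 20.4 and 16.5 CPM with 6% ethanol and 49.0, 61.1 and 47.0 CPM with 10% ethanol. All 3 libraries of the 6% group were below all 6 others. The log2 fold change against control was -1.55 ± 0.54 (SE; edgeR adjusted p = 0.799, DESeq2 adjusted p = 0.0866), and it ran from -1.82 to -1.19 over 19 other settings. No exon of Ndufa8 overlaps another gene in the annotation used for lengths.

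Ndufa7, an accessory subunit of the matrix arm, had 27.4, 22.3 and 58.3 CPM in controls, 2.92, 4.20 and 16 CPM with 6% ethanol and 37.3, 4.42 and 19.2 CPM with 10% ethanol. The 6% libraries were lowest as a group, although 10% ethanol 2 was as low (log2 fold change -2.22 ± 0.96 SE, edgeR adjusted p = 0.799). With 1 library left out the value ran from -3.37, without 6% ethanol 3, to -1.73, without control 3. Ndufc2, a membrane arm subunit, had 6.45, 6.58 and 9.68 CPM in controls, 5.88, 1.91 and 1.10 CPM at 6% and 4.44, 10.7 and 9.23 CPM at 10%. The 6% library nearest to the controls was the one with a long header (log2 fold change -1.34 ± 1.01 SE, edgeR adjusted p = 0.851). The value was -2.35 without that library and -0.94 without 6% ethanol 3, and -0.16 in the long-header libraries alone, where each of these groups is 1 library. With library size alone as the scale, Ndufs5 and Ndufa12 also lay wholly below the controls, 5 members in all against 6.58% of genes.

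Of the members with the smallest p at 6% ethanol, 3 others overlapped with the controls. Ndufs5, a small subunit on the intermembrane side, had 12.2, 64.4 and 21 CPM in controls against 5.55, 16 and 9.69 CPM at 6% and 12.9, 4.06 and 11.7 CPM at 10%. Its log2 fold change of -1.65 ± 0.88 (SE, edgeR adjusted p = 0.812) was -0.68 without control 2. Ndufb11b had 15.9, 75.9 and 71.2 CPM in controls, 30.0, 20.4 and 4.18 CPM at 6% and 24.5, 8.88 and 5.47 CPM at 10%. It matched no entry of the annotations used here, and reads may be divided between it and Ndufb11, so its counts are uncertain. Ndufaf4, an assembly factor that works with Ndufaf3 on the ubiquinone-binding module, had 9.72, 13.5 and 15.0 CPM in controls and 51.0, 7.26 and 39.9 CPM at 6%, where 2 libraries were above and 1 below all controls (log2 fold change 1.36 ± 0.78 SE, edgeR adjusted p = 0.822).

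For 10% ethanol against control, more members lay below 0 than above, and none passed. By edgeR 0 of 47 members had an adjusted p under 0.05 (background 0%), and 1, Ndufb11b, an unadjusted p under 0.05, against 2.14% of all genes. The lowest edgeR adjusted p of a member was 0.9999. DESeq2 called 0 members and 0.118% of its genes. Below 0 were 33 of 47 members (70.2%), against 52.9% of all genes. Their median log2 fold change was -0.30, that of all genes -0.05. The log2 fold change was over 1 in size for 13 of 47 members (27.7%), against 28.2% of all genes. The accessory subunits had 23 of 30 below 0 with a median of -0.54, the core subunits 4 of 7 with a median of -0.03, and the assembly factors 4 of 8 with a median of 0.17. The difference between accessory and core subunits was not tested. Without control 3, in which 9 members had their highest value, the member median was -0.12 with 28 below 0, and the accessory median -0.24 with 19 of 30. Without 10% ethanol 2 it was -0.33. Without 10% ethanol 3 the member median was -0.65. The core median had no stable sign: it was 0.26 without 10% ethanol 1, 0.16 without control 1, 0.13 without 10% ethanol 3 and 0.02 without 10% ethanol 2, and -0.10 without control 2. The assembly median was -0.12 without 10% ethanol 3, 0.41 without 10% ethanol 2 and 0.33 without 10% ethanol 1. With header form as a term the member median was -0.24 and the accessory median -0.25. In the long-header libraries alone the member median was -0.10, with 0.03 over all genes, and in the short-header libraries alone it was -0.39, with -0.19 over all genes. With a long header the control and 6% groups are 1 library each, and with a short header the 10% group is. So in each comparison with the 10% group within a header form, a lone library is taken to have the spread of the rest. For 6% against control this holds only with a long header.

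The 10% libraries lay wholly below the controls for 5 members (10.6%, against 3.67% of all tested genes) and wholly above for 1 (2.13%, against 4.39%). Ndufb3, a small membrane arm subunit, had 5.31, 11.7 and 18.3 CPM in controls, 5.5, 16 and 3.08 CPM at 6% and 3.55, 1.39 and 4.79 CPM at 10% (log2 fold change -1.86 ± 1.04 SE). Ndufa5, of the matrix arm, had 2.29, 1.81 and 3.67 CPM in controls, 0.423, 12.4 and 2.75 CPM at 6% and 0.679, 0.183 and 1.25 CPM at 10% (-1.88 ± 1.4). In both genes the 6% group ran from below the controls to within or above their range. Ndufs6, a zinc-binding subunit of the matrix arm, had 10.1, 10.3 and 17.0 CPM in controls, 3.68, 28.6 and 2.86 CPM at 6% and 6.64, 2.56 and 8.66 CPM at 10% (-1.07 ± 1.05). Its exons overlap those of Mrpl36 on the opposite strand by 30 bases. Ndufa12 was lower by the least, 71.6 ± 10.7 CPM against 88.1 ± 2.49 CPM in controls (-0.30 ± 0.45).

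The assembly factor pair of the ubiquinone module lay on opposite sides of the controls at 10% ethanol. Ndufaf3 had 3.76, 2.02 and 2.49 CPM in controls, 0.0847, 3.06 and 0 CPM at 6% and 1.41, 0.219 and 0.684 CPM at 10%, from 6 to 27 counts per library in the last group (log2 fold change -1.83 ± 1.67 SE). Its exons overlap those of Impdh2 by 48 bases on the opposite strand. Ndufaf4 had 25.7, 18.1 and 19.3 CPM at 10%, all above the controls (0.72 ± 0.77). Neither passed, with an edgeR adjusted p of 0.9999 for each of the 6 members named as separate. For Ndufaf4 the separation held with library size alone as well, as it did for the 5 lower members, which Ndufs5 then joined. On that scale 4.8% of all genes were wholly lower and 2.92% wholly higher.

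Of the members of smallest p at 10% ethanol, Ndufb11b had a log2 fold change of -2.07 ± 0.92 (SE, edgeR adjusted p = 0.9999) from the values given above, and it ran from -2.91 to -1.69 with 1 library left out. Its controls and 10% libraries overlapped, at 15.9 and 24.5 CPM. In Ndufb7, Ndufa4 and Ndufs5 the size depended on a single control library. Ndufb7, another subunit with cysteine motifs on the intermembrane side, reached 67.0 CPM in control 3, where control 1 had 11.3 CPM and control 2 had 6.36 CPM, with 11.2, 14.1 and 4.73 CPM at 6% and 7.21, 5.34 and 7.52 CPM at 10%. Its log2 fold change of -2.07 ± 0.98 (SE, edgeR adjusted p = 0.9999) was -0.40 without that library. Control 3 was also the high control for Ndufa4, which had 38.1, 57.9 and 225 CPM in controls and 20.4, 49.2 and 67.8 CPM at 10%, with a log2 fold change of -1.22 ± 0.74 (SE) that was -0.08 without control 3. Ndufs5 had -1.77 ± 0.88, and -0.79 without control 2.

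**Figure D3:**
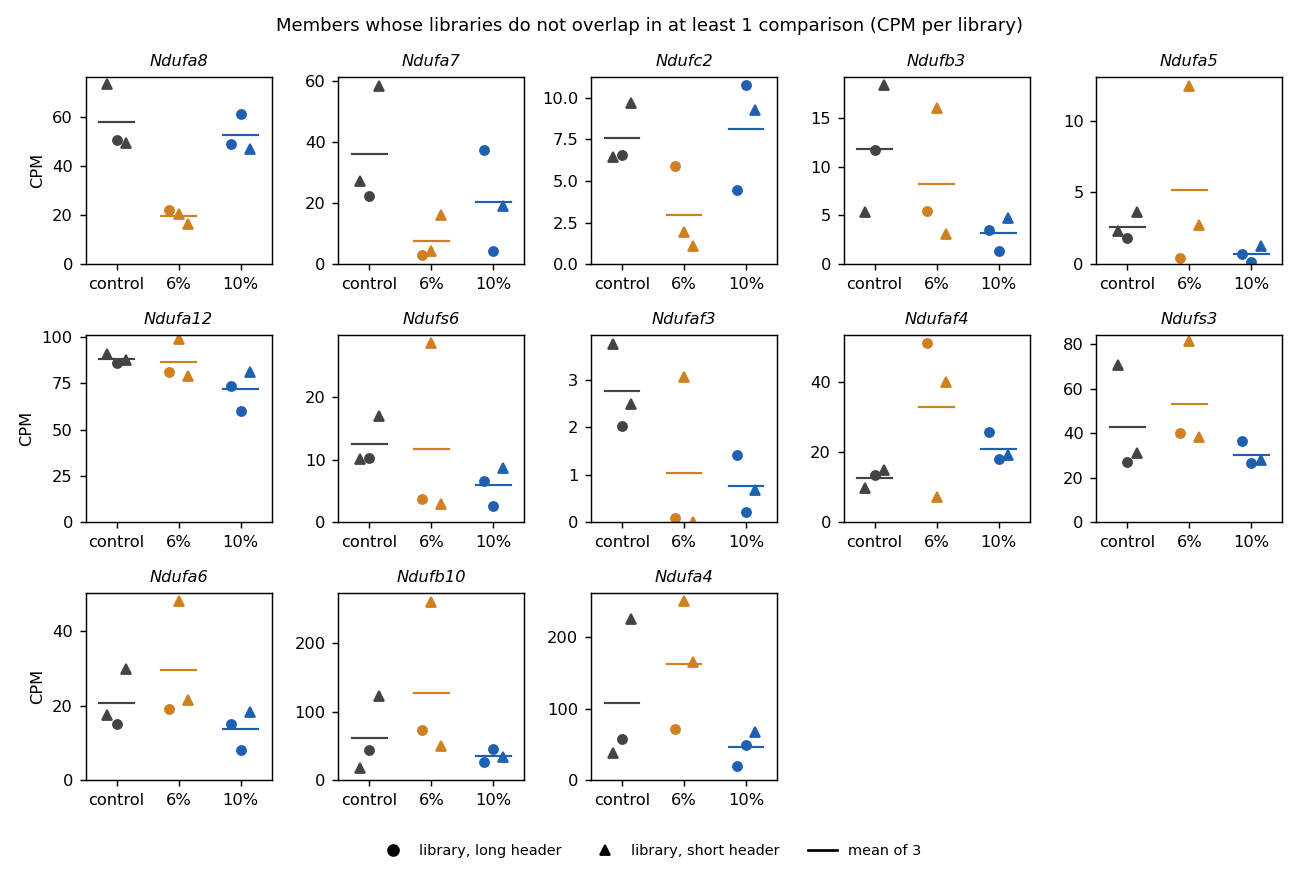
CPM (y axis, linear, from 0) of the 13 members whose libraries do not overlap between the groups of at least 1 comparison, by sire treatment (x axis). Points are libraries, circles for the long header and triangles for the short, and lines are means of 3. In Ndufa8 the 3 libraries of 6% ethanol, at 16.5 to 22.1 CPM, lie below the 6 others.

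Between the doses the difference was tested directly, and again no member passed. By edgeR 0 of 47 members passed (background 0%), with 3 at an unadjusted p under 0.05 (6.38%, against 5.33% of all genes), and DESeq2 called 0 members and 0.459% of its genes. Members lay lower at 10% than at 6% ethanol in 32 of 47 cases (68.1%, against 50.5%), with a median log2 fold change of -0.38 against -0.02. That direction rested on 6% ethanol 2. Without it 21 of 47 lay below 0 and the median was 0.20. Without 10% ethanol 2 the median was -0.15. The median was 0.02 in the long-header libraries alone and -0.31 in the short-header ones, and with header form as a term -0.18.

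Wholly lower at 10% than at 6% ethanol were Ndufs3, Ndufa4, Ndufa6 and Ndufb10 (8.51% of members, against 3.6% of genes), and wholly higher was Ndufa8 (2.13%, against 6.05%). Ndufb10, a membrane arm subunit stabilised by disulfide bonds, had 73.3, 260 and 49.7 CPM at 6% and 26.2, 45 and 34.7 CPM at 10%, with 18.6, 44.9 and 122 CPM in controls (log2 fold change -1.85 ± 0.79 SE, edgeR adjusted p = 0.806, and -0.79 without 6% ethanol 2). Ndufa4 had 71.9, 249 and 164 CPM at 6% against the 10% values given above (-1.82 ± 0.76, edgeR adjusted p = 0.806). Ndufa6, which docks the mitochondrial acyl carrier protein Ndufab1 on the matrix arm, had 19.2, 48.1 and 21.5 CPM at 6%, 15.1, 8.19 and 18.2 CPM at 10% and 17.5, 15.0 and 29.9 CPM in controls. The lower edge of the 6% group and the upper edge of the 10% group were close in Ndufa6, at 19.2 and 18.2 CPM, and in Ndufa4, at 71.9 and 67.8 CPM. With library size alone as the scale Ndufa4 stayed separate and the other 3 did not.

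Ndufa8 was 1.41 ± 0.54 (SE) higher on the log2 scale at 10% than at 6% ethanol, with an edgeR adjusted p of 0.806. This value ran from 1.29 to 1.55 over 19 other settings. Among the other members of small p, Ndufa5 (-2.88 ± 1.45) and Ndufb6, a membrane arm subunit (-1.88 ± 0.95), overlapped between the doses. For Ndufb6 the 6% libraries held 16, 174 and 30.5 CPM and the 10% libraries 20.6, 17.5 and 21.8 CPM. Without 6% ethanol 2 the log2 difference was -0.20 for Ndufb6 and -1.15 for Ndufa5.

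The remaining accessory subunits and assembly factors overlapped between the groups in all 3 comparisons. Ndufa9, which sits beside the ubiquinone pocket, had 137, 84.9 and 44.7 CPM in controls, 101, 96.8 and 44.9 CPM at 6% and 69.0, 136 and 63.2 CPM at 10% ethanol, and its fitted log2 fold changes were at most 0.15 from 0. Ndufc1, a small membrane arm subunit, had 1.31, 1.84 and 12.5 CPM in controls, 1.19, 22.3 and 33.9 CPM at 6% and 1.41, 1.54 and 7.18 CPM at 10%, and the 4 libraries at 7.18 CPM or more all had a short header. Ndufab1, the acyl carrier protein, had 8.57, 8.45 and 14.4 CPM in controls, 9.74, 15.7 and 44.7 CPM at 6% and 8.42, 7.57 and 35.8 CPM at 10%, highest in 6% ethanol 3 and 10% ethanol 3. Ndufb11, an X-linked membrane arm subunit, had 117, 59.3 and 52.3 CPM in controls, 67.3, 124 and 5.51 CPM at 6% and 76.8, 106 and 71.9 CPM at 10%, so that both extremes were in the 6% group. Ndufaf1, an assembly factor of the membrane arm, had 21.9, 17.0 and 15.5 CPM in controls, 8.42, 23.9 and 88.4 CPM at 6% and 10.9, 4.90 and 37.7 CPM at 10%, and it was highest in the same pair of libraries. Ndufaf2, which stands in for Ndufa12 until late assembly, had 23.3, 10.1 and 77.5 CPM in controls, 29.9, 17.8 and 30.1 CPM at 6% and 11.8, 32.6 and 65.7 CPM at 10%. It varied widely where Ndufa12 varied least.

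**Figure D4:**
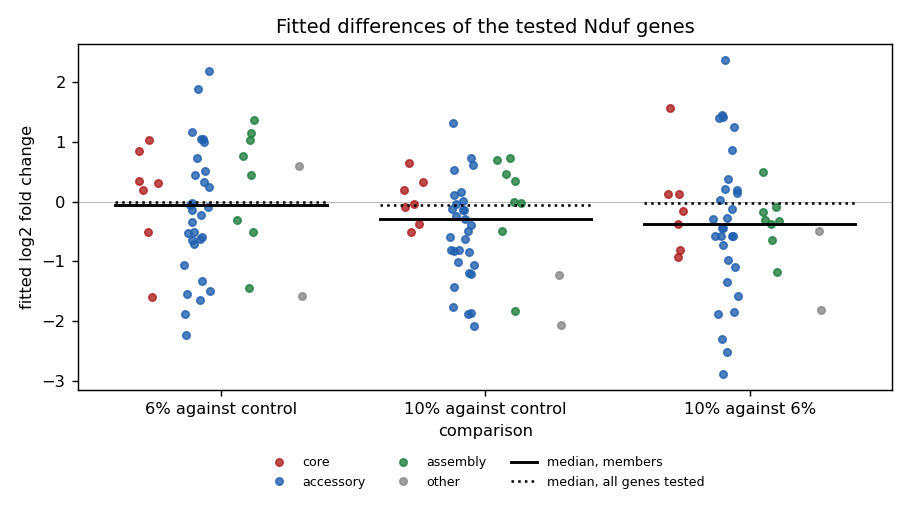
Fitted log2 fold change (y axis) of each tested member in the 3 comparisons (x axis), by role, with horizontal position spread for legibility. Solid lines are the medians of the 47 members, -0.07, -0.30 and -0.38, and dotted lines those of all 12488 tested genes, and no point passed the adjusted threshold of 0.05.

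The other genes of the enzyme were read from lists. The 7 subunits encoded in mitochondrial DNA (mt-Nd1 to mt-Nd6 and mt-Nd4l) had a median log2 fold change of 1.57 at 6% ethanol with 7 of 7 above 0, and -0.67 at 10% with 7 of 7 below 0. Over all genes 50.5% lay below 0 at 6% ethanol and 52.9% at 10%. By edgeR 0 of them passed, with 3 at an unadjusted p under 0.05 at 6% (against 6.24% of all genes) and 0 at 10% (against 2.14%), and DESeq2 called 0. Between the doses 7 of 7 lay lower at 10% (against 50.5% of all genes), with a median of -2.05. By edgeR 5 had an unadjusted p under 0.05 (against 5.33% of all genes), and by edgeR and DESeq2 0 passed. Their summed level was 3217, 4207 and 10548 CPM in controls, 4571, 20163 and 30145 CPM at 6% ethanol and 3716, 3407 and 5898 CPM at 10%. The long-header libraries, with each group among them, ran from 3407 to 4571 CPM. Every higher sum was in a short-header library. Each of the 7 genes was highest in 6% ethanol 3, so they are not 7 separate observations. The nuclear members summed to 1356, 1403 and 1976 CPM in controls, 1285, 2932 and 1232 CPM at 6% and 1255, 1268 and 1462 CPM at 10%. The library with the most mt-Nd RNA, 6% ethanol 3, thus had the least Nduf RNA of the 9, while 6% ethanol 2 was high in both. The accessory subunits summed to 1719 CPM in 6% ethanol 2 and to 480 to 1125 CPM elsewhere.

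**Figure D5:**
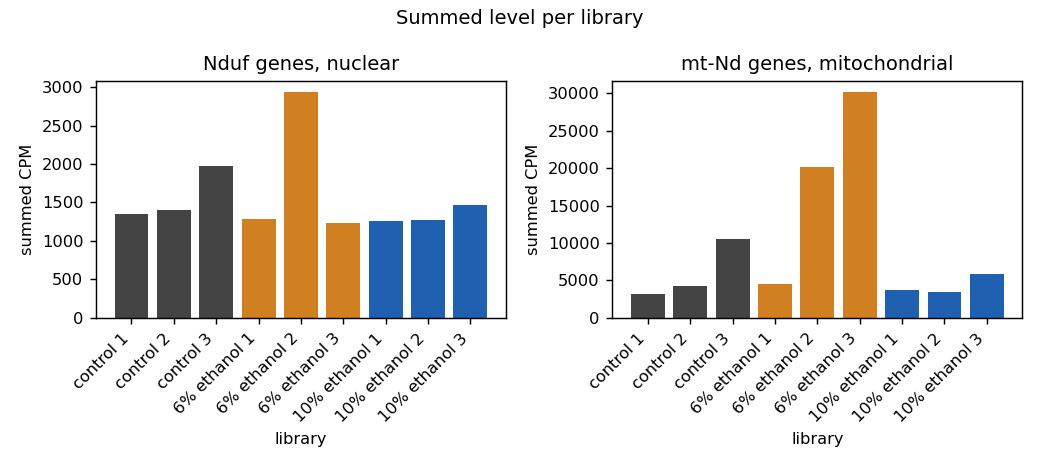
Summed CPM (y axis, linear, from 0) of all 51 Nduf genes on the left and of the 7 mt-Nd genes on the right in each library (x axis), grey for control, orange for 6% and blue for 10% ethanol. The library 6% ethanol 3 has the tallest bar on the right, 30145 CPM, and the shortest on the left, 1232 CPM.

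Of 14 complex I assembly factors not named Nduf, 13 were in the table and tested. At 6% ethanol 6 lay above and 7 below 0 (against 50.5% of all genes below). At 10% 5 lay above and 8 below (against 52.9% below). By edgeR 0 passed in either comparison, and DESeq2 called 0. An unadjusted edgeR p under 0.05 was seen for 1 at 6% (against 6.24% of all genes) and 0 at 10% (against 2.14%). Tmem186, a membrane assembly factor, had 52.4, 51.4 and 71.5 CPM in controls, 26.2, 8.97 and 18.4 CPM at 6% and 53.8, 42.7 and 29.3 CPM at 10%. As with Ndufa8, its 6% libraries lay below all 6 others (log2 fold change -1.71 ± 0.62 SE, edgeR adjusted p = 0.799). Tmem126b, which works on the membrane arm, also lay wholly below the controls at 6%, with 3.98, 0.573 and 2.97 CPM against 5.23, 6.29 and 4.40 CPM (-1.06 ± 1.06). Timmdc1, another membrane assembly factor, had 22.1, 23.0 and 14.1 CPM in controls, 37.2, 17.9 and 101 CPM at 6% (1.4 ± 0.70, edgeR adjusted p = 0.804) and 41.8, 30.2 and 30.6 CPM at 10% (0.79 ± 0.69, edgeR adjusted p = 0.9999). Only its 10% libraries were all above the controls. Chchd4, an import factor of the intermembrane space, lay wholly below them at 10%, with 37.4, 18.4 and 28.6 CPM against 48.3, 41.3 and 61.6 CPM (-0.84 ± 0.59). The rest of the 13 overlapped with the controls in both comparisons. Over all tested genes 4.72% lay wholly below the controls at 6%, and at 10% 3.67% lay wholly below and 4.39% wholly above. The genes named from these lists were chosen for description after their values were seen.

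Complex II, the other entry of electrons to ubiquinone, had 5 of 8 listed genes above 0 at 6% and 4 of 8 at 10% ethanol, and by edgeR and DESeq2 0 passed, with 0 at an unadjusted p under 0.05 in either. Of 12 listed regulators of nuclear respiratory genes 11 were tested, and by edgeR and DESeq2 0 passed, with 2 at an unadjusted p under 0.05 at 6% (against 6.24% of all genes) and 0 at 10%. These were Gabpb2, a subunit of GABP (log2 fold change 1.91 ± 0.74 SE), and Ppargc1b, a coactivator (-4.71 ± 1.99), which lay on opposite sides of the controls' mean and both overlapped with the controls. Ppargc1b had 34.7, 20.6 and 0 CPM in controls and 0.169, 2.10 and 0 CPM at 6%, the latter from 4, 11 and 0 counts. Nrf1, which encodes the factor whose motif was searched above, had 47.4 ± 5.24, 51.2 ± 16.8 and 63.2 ± 13.2 CPM in control, 6% and 10% libraries (SD, n = 3 each). Esrra, an orphan nuclear receptor that regulates mitochondrial genes, had 9.31, 6.29 and 3.81 CPM in controls, 9.31, 3.63 and 5.84 CPM at 6% and 27.5, 15.1 and 18.7 CPM at 10%, where all 3 libraries lay above the 6 others (log2 fold change 1.66 ± 0.85 SE against control, edgeR adjusted p = 0.9999). At 10% ethanol Nrf1 also lay wholly above the controls, and the other tested regulators overlapped with them. Over all tested genes 4.39% lay wholly above the controls at 10%, and 6.05% wholly above the 6% libraries. Ppargc1a, the coactivator best known for mitochondrial biogenesis, had no count in any library.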

How the data were processed

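Total RNA of mouse morulae was sequenced in 9 libraries, 3 per sire treatment. The deposited files, 1 per library, hold whole-number gene counts that are not normalized. The authors used featureCounts and build GRCm39, per the submitters' processing notes, which also name DESeq2. In 4 files the header names RNA STAR, per the file headers. Other aligners, versions, annotation and strand setting are not given in the sources used here, so members that overlap exons of other genes in GENCODE M21 (20 of 50 matched), and copies such as Ndufb4c and Ndufb11b, carry uncertain counts.

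The members and lists were chosen with earlier results of these data known. Genes were filtered with filterByExpr by group, scaled with TMM and fitted in 1 edgeR quasi-likelihood model with 3 groups and 9 libraries. P-values were adjusted by Benjamini-Hochberg over 12488 genes and compared with 0.05. A standard error is the fitted log2 fold change divided by the root of its F. The fits ran in R 4.3.3 with edgeR 4.0.16 (on limma 3.58.1), and DESeq2 1.42.0 served as an alternative. The scripts were tested on simulated data. Named were, by rule, the core subunits, members whose groups do not overlap, the 5 members of smallest p per comparison, the 3 highest per kilobase and those not tested. Ndufa13, Ndufa9, Ndufc1, Ndufab1, Ndufb11, Ndufaf1 and Ndufaf2 fall outside this rule and were chosen after their values were seen. The values of 1 core subunit are not reported here, though it counts among the members. The length used is that of the longest principal coding transcript in GENCODE M21. The closing section gives the alternative settings.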

Additional observations from a re-analysis of the deposited data

How the results depend on the processing

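Each comparison was refitted under 19 other settings, namely RLE scaling, library size alone, a looser filter (10 counts in all) and a stricter one (5 CPM in 3 libraries), DESeq2, only the groups compared, header form as a term, mitochondrially encoded and ribosomal RNA genes left out, each library left out, and each header form alone. The last pair was chosen after seeing the data. In all of them 0 members were called in each of the 3 comparisons. With library size alone the median of all genes moved to -0.28, -0.18 and 0.13 for 6% against control, 10% against control and 10% against 6%, and that of the members to -0.31, -0.41 and -0.14. Leaving out 1 library, the member median ranged from -0.72 to 0.15, from -0.65 to -0.12, and from -0.49 to 0.20 in these comparisons. The value of -0.72 came without 6% ethanol 2, when 36 of 47 lay below 0, that of 0.15 without control 3 and that of -0.65 without 10% ethanol 3. Between the doses the direction of 2 named members reversed in long-header libraries alone, Ndufa5 to 0.00 (0.00342) and Ndufb6 to 0.25, in a fit whose 6% group is 1 library. The others named for separate groups or a small p in a comparison kept their direction in each setting in which they were tested. Directions of the remaining named genes were not followed in this way. Among them Ndufa9, near 0 at 10% ethanol against control, had 0.01 by edgeR and -0.02 by DESeq2. Depth limits the precision of low members, of which Ndufs7, Ndufaf3 and Ndufaf8 had 0 counts in at least 1 library, and why they were at 0 was not tested. No paired analysis was possible because no label numbers the libraries: their numbers here follow the accessions and only name them.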
